A study of Mus musculus with 9 samples.

Results

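The J-domain co-chaperones of mouse cortex were followed after experimental stroke. Members were all genes whose symbol in the deposited transcript tables is Dnaja, Dnajb or Dnajc followed by digits only. The rule gave 43 of the 52550 genes in the tables, with 4 in subfamily A, 13 in subfamily B and 26 in subfamily C, and 224 annotated transcripts. The level of a gene is its TPM, a length-normalized share of the library, summed over its transcripts. Testing needed a deposited TPM of 1 or more in 3 or more libraries out of 9, and 39 members met this, 4 of A, 10 of B and 25 of C.

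The animals were C57BL/6N males aged 9 to 12 weeks, and cerebral cortex was sampled in 3 groups of 3 libraries. The knockdown group (replicates 2, 3 and 4) received a locked nucleic acid antisense oligonucleotide against the enhancer RNA eRNA_06347 through the lateral ventricles, before the middle cerebral artery was closed with a filament (MCAO) for 1 h and reperfused for 6 h. The control oligo group (replicates 1, 2 and 3) had the same MCAO and reperfusion after a negative control oligonucleotide. The sham group (replicates 1, 2 and 3) had a neck incision but no filament was placed, and no oligonucleotide is named for it in the labels. The MCAO tissue was the infarcted cortex of the occluded side, and the labels give no measure of infarct size. In bulk tissue, fewer cells of a type and less RNA per cell cannot be told apart.

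Hsp70 chaperones hold unfolded stretches of protein in cycles of ATP hydrolysis. A J-domain protein brings the client and, with its J-domain, triggers that hydrolysis; a nucleotide exchange factor then resets the Hsp70. Subfamily A keeps the full domain order of bacterial DnaJ, B lacks the zinc-binding part, and C shares only the J-domain and sends Hsp70 to single tasks, such as uncoating clathrin vesicles, importing proteins into mitochondria or splicing. Neurons depend on several of them, among them auxilin (Dnajc6) and cysteine string protein (Dnajc5) at the synapse.

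The libraries of the groups differed in more than surgery. Estimated from the deposited coverage, a read (or pair) gave 141 aligned bases in the 6 MCAO libraries, with 4.92 to 5.52 gigabases aligned, against 51 bases and 2.98 to 3.18 gigabases in sham libraries. The sham libraries were not made with the others: the labels say the laboratory reused data it already had. Small structural RNAs took 0.705 to 0.862% of TPM in MCAO and 62.0 to 66.4% in sham libraries, and mitochondrially encoded genes 22.6 to 28.9% in MCAO and 0.277 to 0.577% in sham libraries. TPM sums to a fixed total, so such a class lowers the deposited TPM of the other genes of its library, and the median gene stood 0.56 higher in control oligo than in sham libraries on the log2 scale. Median-ratio scaling of the libraries left this median at 0.01, and the values after it are called scaled TPM here. Data set, read length and oligonucleotide cannot be told apart from stroke in any comparison with sham. No gene in the tables carries the name of the targeted enhancer RNA, so the knockdown itself was not checked here.

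Members moved in both directions between the control oligo MCAO and the sham cortex, with Dnajb1, Dnajc17 and Dnaja1 at the upper end and Dnajc6 at the lower. With limma on log2(scaled TPM + 1) and an adjusted p under 0.05 over all 17080 genes kept, 13 members (33.3%) were higher and 11 (28.2%) lower, while 26.1% of all genes were higher and 29.2% lower. Those shares are close, so the number called is not a result about the family. The split is different with deposited TPM and no scaling, where 24 members were higher and 1 was lower (all genes 52.6% and 12.8%). The call of 10 of the 11 falls thus rests on the scaling, 5 of them with a positive unscaled change (Dnajc3, Dnajc5, Dnajc15, Dnajc27 and Dnajc28), and Dnajc6 was the 1 member that fell under each alternative tried. Leaving out sham replicate 1 or control oligo replicate 1 left 7 members lower. The median member changed by 0.11, against 0.01 for all genes, with a range of -1.18 to 2.32, and 30 of the 39 members had no overlap between the libraries of these groups, against 64.0% of all genes.

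**Figure D1:**
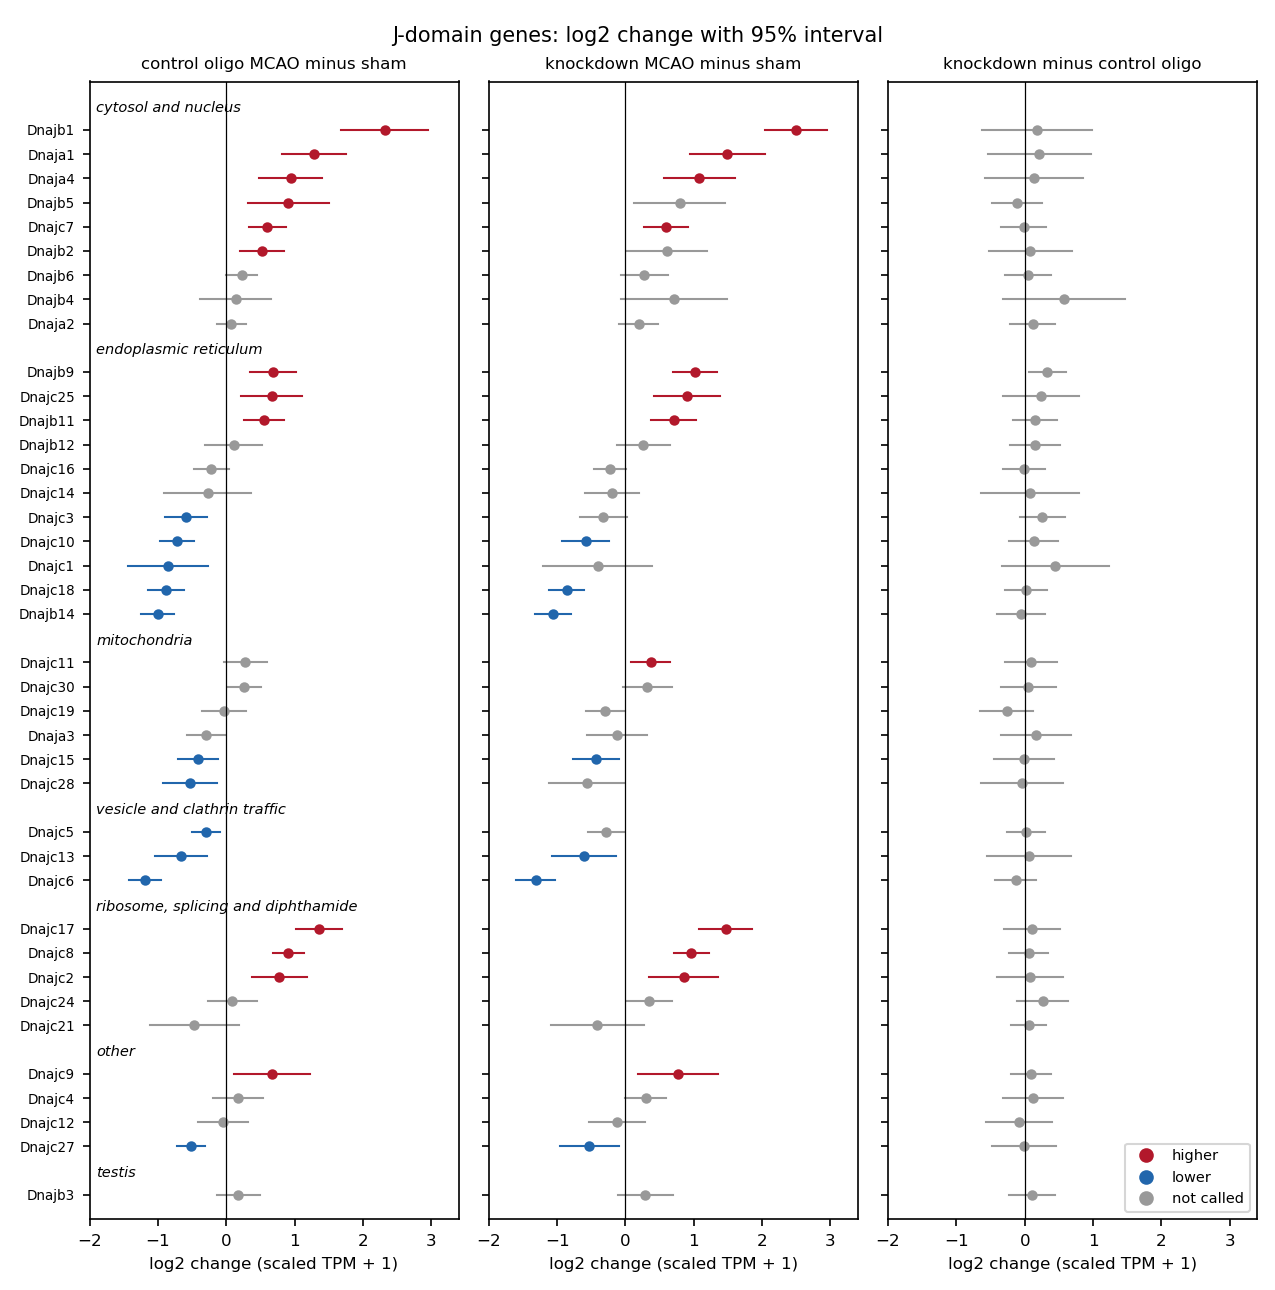
Log2 change of scaled TPM + 1 (x axis) of the 39 members kept, grouped by role, with 95% intervals; the panels show control oligo MCAO minus sham, knockdown MCAO minus sham, and knockdown minus control oligo. Colored points passed the adjusted p threshold; the right panel has none, and of the blue points in the other panels, that of Dnajc6 alone also passed without scaling.

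On the scaled values the summed levels of subfamilies A and B were higher in MCAO cortex, and that of C was lower through Dnajc6. Members of A summed to 419 to 707 scaled TPM in knockdown, 416 to 649 in control oligo and 299 to 308 in sham libraries, so the MCAO groups did not overlap with sham. Members of B summed to 669 to 826 in knockdown, 597 to 783 in control oligo and 358 to 465 in sham libraries, again without overlap with sham. Members of C summed to 787 to 907 in knockdown, 817 to 873 in control oligo and 934 to 964 in sham libraries, with sham above every MCAO library on this scale. Between control oligo and sham libraries, 2 of 4 A members and 5 of 10 B members rose and 1 B member fell, and 6 of 25 C members rose and 10 fell; the medians were 0.51, 0.38 and -0.22. Among all genes 26.1% were higher and 29.2% lower, so the share of C members that rose is close to that of all genes. Without scaling 3 A, 9 B and 12 C members rose, and 1 C member fell (all genes 52.6% and 12.8%). On deposited TPM the sum of C was higher in every MCAO library than in every sham library, the reverse of the scaled sum.

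**Figure D2:**
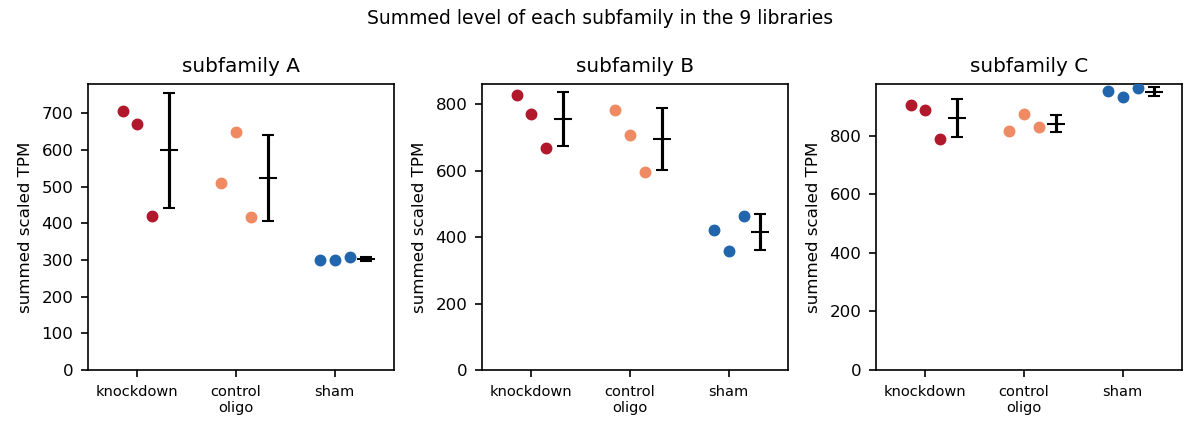
Summed scaled TPM (y axis) of subfamilies A, B and C in the 3 libraries of each group (points), with the mean and SD (bars). Sham libraries lie below all MCAO libraries for A and B and above them for C on the scaled values. Without Dnajc6 the C sums of MCAO and sham libraries overlap.

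The leading gene of the family differed between MCAO and sham libraries. Dnajc6 held 4.25, 3.94 and 4.39% of the summed family TPM in knockdown, 4.49, 4.87 and 5.41% in control oligo and 12.9, 15.1 and 13.6% in sham libraries. It was the leading member of every sham library and ranked 8 in every MCAO library, and this share does not depend on how a library is scaled. Dnaja1 led all 6 MCAO libraries with 12.7 to 18.9%, against 7.62 to 7.80% in sham libraries. Dnajb1 held 6.32 to 12.4% in the MCAO libraries, with rank 6 in control oligo replicate 3 and rank 2 in the other 5, against 2.0 to 2.3% and rank 16 or 17 in sham libraries.

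Among the co-chaperones of cytosol and nucleus, 6 of 9 rose between control oligo and sham libraries and none fell, with a median of 0.60, where 26.1% of all genes rose. In knockdown against sham 4 of the 9 rose, where 22.7% of all genes rose. Without scaling all 9 rose in each comparison with sham, where 52.6% (control oligo) and 52.7% (knockdown) of all genes rose. Dnajb1 (Hsp40, the classical heat-inducible partner of Hsp70; chromosome 8, 83608193 to 83612653, plus strand, GRCm38) had 274, 198 and 165 scaled TPM in knockdown, 261, 203 and 117 in control oligo and 38.0, 31.8 and 38.7 in sham libraries. Every MCAO library stood far above every sham library, and the MCAO libraries spread widely around their means. The rise of control oligo over sham was 2.32 (SE 0.27, limma adjusted p = 0.000375), a 5.35-fold difference of means and the largest in the family. Its lead transcript carried 95.2% ± 2.4 of gene TPM in control oligo and 99.0% ± 0.5 in sham libraries (SD, n = 3 each).

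Dnaja1, a farnesylated A member that helps Hsc70 refold and deliver proteins, is encoded on chromosome 4 from 40722150 to 40737149. It had 454, 427 and 247 scaled TPM in knockdown, 313, 421 and 234 in control oligo and 131, 121 and 134 in sham libraries. The groups with MCAO lay above sham without overlap, and knockdown replicate 4 and control oligo replicate 3 were the lowest of their groups. Control oligo exceeded sham by 1.28 (SE 0.20, adjusted p = 0.00145). Exons of Dnaja1 share 608 bases with Smu1 on the opposite strand, whose own mean was 50.5 in control oligo and 48.6 scaled TPM in sham libraries. The values were made without a strand option, so reads in such stretches cannot be assigned to either gene.

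Dnaja4, the third cytosolic A member, had 77.7, 71.7 and 42.8 scaled TPM in knockdown, 58.0, 74.7 and 41.4 in control oligo and 27.6, 30.01 and 29.1 in sham libraries. No MCAO library fell into the sham range. It rose by 0.94 (SE 0.20, adjusted p = 0.00577) in control oligo over sham, while Wdr61, with which it shares 1581 exon bases on the opposite strand, had means of 39.8 and 34.1. Dnaja2, the A member with the steadiest level, had 133, 128 and 102 scaled TPM in knockdown, 109, 119 and 105 in control oligo and 105, 107 and 105 in sham libraries. Its groups overlapped, and the interval of control oligo minus sham, with a change of 0.08 (adjusted p = 0.503), covers 0.

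**Figure D3:**
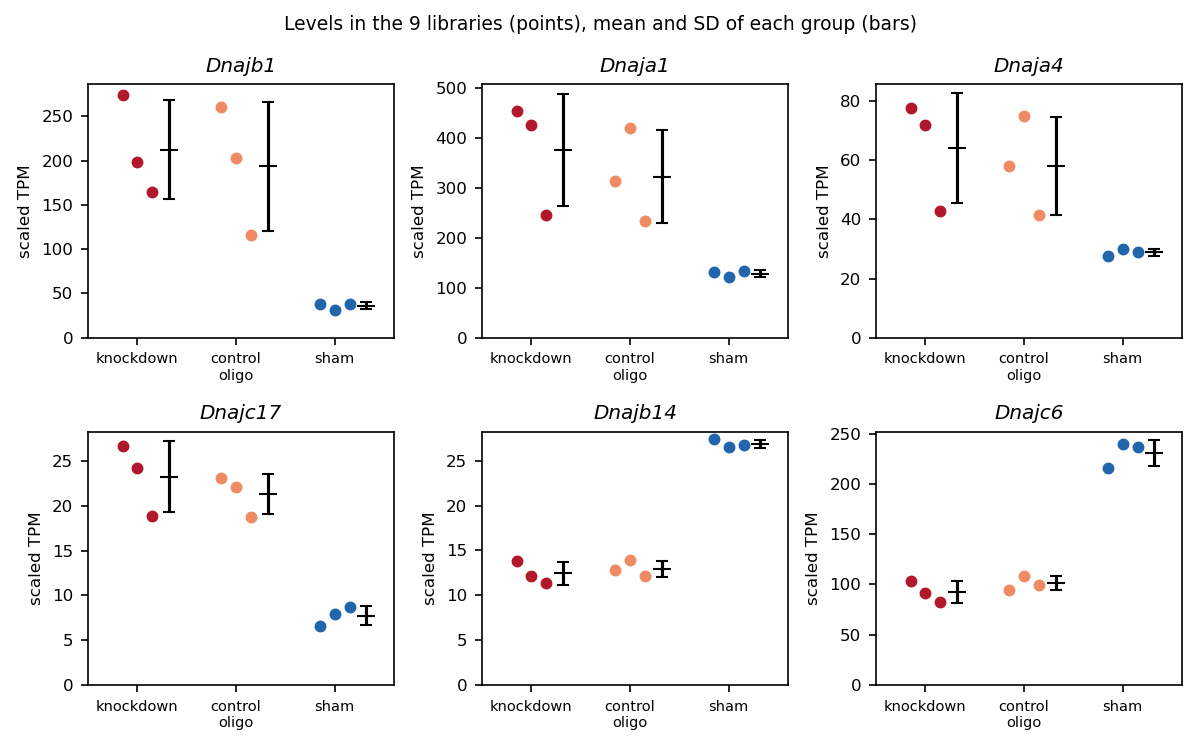
Scaled TPM (y axis) of 6 members in the 3 libraries of each group (points), with the mean and SD (bars). Dnajb1, Dnaja1, Dnaja4 and Dnajc17 lie higher and Dnajb14 and Dnajc6 lower in all MCAO libraries than in all sham libraries; of both falls, that of Dnajc6 also passed the test on unscaled TPM.

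Dnajb5, a relative of Dnajb1, had 123, 147 and 103 scaled TPM in knockdown, 144, 129 and 128 in control oligo and 78.8, 45.6 and 97.9 in sham libraries. All MCAO libraries were above the highest sham library, and sham libraries were the most scattered. The rise of control oligo over sham was 0.91 (SE 0.25, adjusted p = 0.019), and it did not pass without control oligo replicate 1. Dnajc7, which binds Hsp70 and Hsp90 through its TPR repeats, had 136, 134 and 107 scaled TPM in knockdown, 121, 139 and 119 in control oligo and 91.7, 83.1 and 74.3 in sham libraries. Its sham libraries were all lower, and the difference of 0.60 (SE 0.12, adjusted p = 0.00377) passed under all alternatives tried.

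Dnajb2, a neuronal member that hands clients to the ubiquitin system, had 52.5, 47.6 and 27.5 scaled TPM in knockdown, 35.6, 43.2 and 37.8 in control oligo and 22.8, 30.9 and 26.6 in sham libraries. Control oligo lay above sham without overlap (0.53, adjusted p = 0.0143), while knockdown replicate 4 lay inside the sham range. The call was lost without sham replicate 1, with TPM over nuclear protein-coding genes and with all 9 libraries in 1 fit. Dnajb6, known for keeping polyglutamine proteins from aggregating, had 157, 184 and 133 scaled TPM in knockdown, 155, 148 and 150 in control oligo and 126, 121 and 141 in sham libraries. Control oligo and sham did not overlap, yet the difference of 0.22 did not pass (adjusted p = 0.0884). Over its transcripts typed protein coding the difference was 0.007, and these groups overlapped. Dnajb4 did not pass either, at 0.14.

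Of 11 endoplasmic reticulum members, 3 were higher and 5 lower in control oligo than in sham cortex, against 26.1% and 29.2% of all genes. Without scaling 4 were higher and 0 lower (all genes 52.6% and 12.8%). After scaling the risers were Dnajb9 (ERdj4) and Dnajb11 (ERdj3), both partners of the ER Hsp70 BiP, and Dnajc25. Dnajb9 (chromosome 12, 44205559 to 44210326, minus strand) had 64.8, 60.2 and 61.5 scaled TPM in knockdown, 55.1, 47.4 and 45.5 in control oligo and 27.9, 26.8 and 36.5 in sham libraries. The groups stood in this order with no overlap. Control oligo exceeded sham by 0.69 (SE 0.14, adjusted p = 0.00552). Dnajb11 averaged 62.0 ± 5.87 scaled TPM in control oligo and 42.0 ± 5.25 in sham libraries (SD, n = 3 each; change 0.55, adjusted p = 0.00823), and Dnajc25 4.25 ± 0.96 and 2.30 ± 0.49 (change 0.66, adjusted p = 0.0209). The call of Dnajc25 was lost without sham replicate 1, sham replicate 2 or control oligo replicate 1, and without the filter on low values.

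The ER members that fell included Dnajc3 (p58IPK, a lumenal partner of BiP; chromosome 14, 118937932 to 118981702, plus strand), with 26.1, 22.1 and 28.0 scaled TPM in knockdown, 22.6, 20.6 and 19.9 in control oligo and 34.5, 26.9 and 35.0 in sham libraries. Control oligo lay below sham without overlap, whereas 1 knockdown library lay above the lowest sham library. Control oligo was 0.58 lower on the log2 scale (change -0.58, adjusted p = 0.00749), and the unscaled change was 0.06. Dnajb14, an ER membrane protein of quality control, averaged 13.0 ± 0.90 scaled TPM in control oligo and 26.9 ± 0.45 in sham libraries (SD, n = 3 each), a change of -1.0 (adjusted p = 0.000209) that became -0.37 and did not pass without scaling. Its relative Dnajb12 had a change of 0.11 and did not pass. Dnajc18, Dnajc1 and Dnajc10, the last an ER disulfide reductase, fell by 0.88, 0.85 and 0.72 on the log2 scale and lost the call without scaling, Dnajc1 also without sham replicate 1, sham replicate 3 or control oligo replicate 1. Exons of Dnajc1 share 749 bases with Mllt10 on the opposite strand, which had means of 11.8 in control oligo and 20.8 scaled TPM in sham libraries.

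All 3 vesicle members were lower in control oligo than in sham libraries after scaling, against 29.2% of all genes, and Dnajc6 also without scaling. Dnajc6 (auxilin, the neuronal co-chaperone that strips clathrin from vesicles; chromosome 4, 101496648 to 101642799, plus strand) had 104, 91.9 and 82.3 scaled TPM in knockdown, 94.7, 109 and 99.8 in control oligo and 215, 240 and 237 in sham libraries. Each MCAO library lay far below every sham library. Control oligo stood at 0.438 times the sham mean (change -1.18, SE 0.10, adjusted p = 8.73e-05), and the change without scaling was -0.52, which passed as well. Dnajc5 (cysteine string protein of synaptic vesicles) had 52.4, 47.8 and 42.3 scaled TPM in knockdown, 47.0, 47.1 and 46.4 in control oligo and 60.4, 55.7 and 57.3 in sham libraries. Its sham libraries were all higher and the change was -0.30 (adjusted p = 0.0226), but the unscaled change of 0.36 has the opposite sign, and the call was lost without sham replicate 1, 2 or 3 or control oligo replicate 1 and with the replicate block. Dnajc13 (RME-8, an endosomal J-domain protein) fell by 0.67 (adjusted p = 0.0106), with an unscaled change of -0.02.

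Marker levels of neurons, astrocytes and a neighbouring region are set beside these falls. The 5 excitatory neuron markers summed to 1045 to 1141 scaled TPM in knockdown, 1090 to 1232 in control oligo and 734 to 780 in sham libraries, with 2 of 5 higher and 2 lower in control oligo than in sham. The 5 inhibitory markers summed to 467 to 886 in knockdown, 657 to 1109 in control oligo and 503 to 561 in sham libraries, with 2 higher and 0 lower in control oligo than in sham. None of these markers was at 0 in all libraries. The 5 astrocyte markers summed to 503 to 647 in knockdown, 545 to 736 in control oligo and 973 to 978 in sham libraries. Single astrocyte markers went both ways, with 1 higher and 2 lower in control oligo than in sham (all genes 26.1% and 29.2%). Without scaling 2 were higher and 1 lower (all genes 52.6% and 12.8%). The 5 striatum markers summed to 83.6 to 167 in knockdown, 138 to 177 in control oligo and 64.3 to 72.0 in sham libraries, without overlap with sham, and 3 of them were higher and 1 lower in control oligo than in sham. The part of cell and tissue makeup in the results was not tested.

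None of the 6 mitochondrial members rose in control oligo against sham after scaling, where 26.1% of all genes rose and 29.2% fell. Dnajc15 (part of the import machinery of the inner membrane, -0.42, adjusted p = 0.0249) and Dnajc28 (-0.53, adjusted p = 0.0304) were lower, with changes of 0.24 and 0.03 without scaling. Both calls were lost without sham replicate 1, sham replicate 2 or control oligo replicate 1, that of Dnajc15 also without sham replicate 3. That of Dnajc28 was also lost without control oligo replicate 2, without the filter, with all 9 libraries in 1 fit and with the replicate block. The single Dnajc15 transcript in the tables is typed as a target of nonsense-mediated decay in GENCODE M21, so its value may not stand for coding mRNA. Dnaja3 (the mitochondrial partner of Hspa9), Dnajc11, Dnajc19 and Dnajc30 had changes between -0.29 and 0.28 and did not pass; without scaling Dnajc11, Dnajc19 and Dnajc30 were higher. Dnajc19, of the same import motor as Dnajc15, had 16.4, 20.4 and 19.4 scaled TPM in knockdown, 22.6, 19.3 and 26.3 in control oligo and 22.3, 22.1 and 25.1 in sham libraries, with control oligo and sham overlapping.

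The members tied to ribosomes and splicing held 3 rises among 5 in control oligo against sham cortex, where 26.1% of all genes rose. Dnajc17, a splicing-linked protein with a J-domain and an RNA recognition motif (chromosome 2, 119172500 to 119208795, minus strand), had 26.6, 24.3 and 18.9 scaled TPM in knockdown, 23.1, 22.2 and 18.8 in control oligo and 6.64, 7.88 and 8.74 in sham libraries. Every MCAO library was far above every sham library. The change was 1.35 (SE 0.14, adjusted p = 0.00023), the largest after that of Dnajb1. Dnajc8, also a splicing factor, had 140, 136 and 117 scaled TPM in knockdown, 121, 135 and 119 in control oligo and 68.3, 68.0 and 62.9 in sham libraries, again without overlap (change 0.91, adjusted p = 0.000242). Dnajc2, the ribosome-bound partner of nascent chains, rose by 0.78 (adjusted p = 0.00735), a call that was lost on coding transcripts alone. Dnajc21, which acts in ribosome maturation, did not pass, and its sham libraries were scattered from 21.3 to 48.9.

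Of the other members, Dnajc9 (a histone chaperone) was higher by 0.67 (adjusted p = 0.0437) and Dnajc27 (a Rab-like GTPase with a J-domain) lower by 0.51 on the log2 scale (change -0.51, adjusted p = 0.00205), with an unscaled change of 0.14 for Dnajc27. Dnajc4 and Dnajc12 did not pass, and neither did Dnajb3, the 1 testis member kept, at 0.877 to 1.76 scaled TPM. Dnajb13, Dnajb7 and Dnajb8, known from sperm and testis, had at most 0.399, 0.161 and 0.258 deposited TPM in any library. Dnajc22 was listed at 0 in all 9 libraries.

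Some gene levels rest on transcripts that GENCODE M21 does not type as protein coding. For Dnajc9 the coding transcript held 20.8, 19.5 and 22.4% of gene TPM in knockdown, 20.7, 21.02 and 19.6% in control oligo and 83.3, 78.7 and 19.1% in sham libraries. Sham replicate 3 thus resembled the MCAO libraries, and the rest of the TPM sat on a retained-intron transcript of 781 bases. Summed over coding transcripts alone, Dnajc9 had a change of -0.54 that did not pass (adjusted p = 0.176), opposite to the gene sum. The call on the gene sum was also lost without sham replicate 1 or 2 and without any 1 control oligo replicate, without the filter and with TPM over nuclear protein-coding genes. Dnajc8 kept its rise on coding transcripts (0.51), although these carried 27.4% ± 0.7 of its TPM in control oligo and 35.8% ± 1.7 in sham libraries (SD, n = 3 each). Dnaja1 kept its rise too (1.21), with 43.2% ± 3.0 and 45.3% ± 2.1 on coding transcripts.

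**Figure D4:**
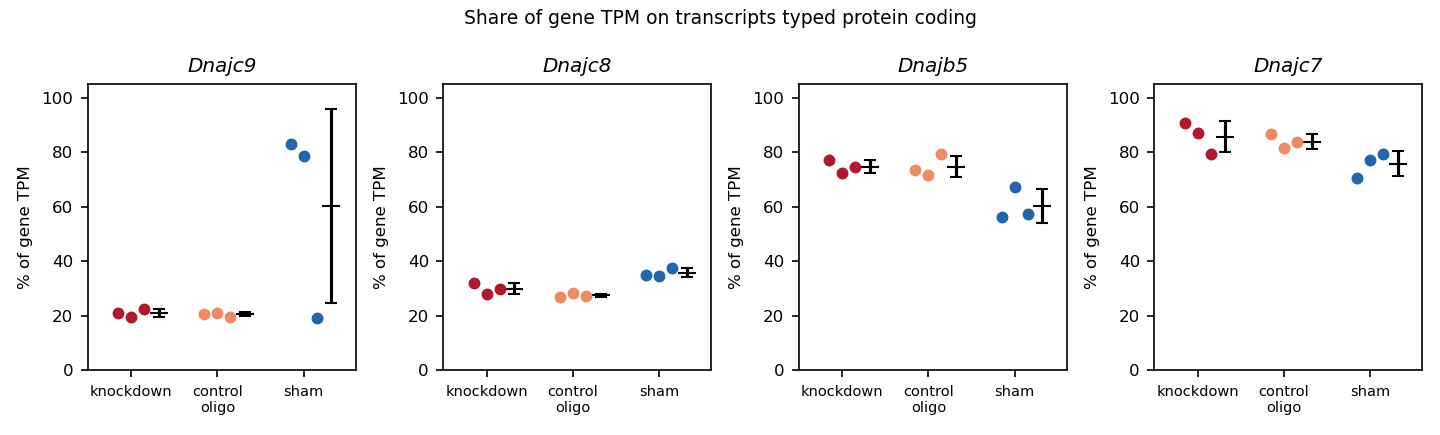
Percent of gene TPM on transcripts typed protein coding (y axis) for 4 members in the 3 libraries of each group (points), with the mean and SD (bars). For Dnajc9, sham replicate 3 (19.1%) lies with all MCAO libraries, apart from sham replicates 1 (83.3%) and 2 (78.7%); MCAO libraries lie below sham libraries for Dnajc8 and above them for Dnajb5, and for Dnajc7 knockdown replicate 4 lies within the sham range.

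The share held by the lead transcript of a gene also differed for some members, about as often as among all genes, so this does not set the family apart. Among 36 members with a mean of at least 5 TPM, the share of the lead transcript did not overlap between control oligo and sham libraries in 11, against 26.2% of 11727 genes kept with such a mean, and it was at least 90% in every library for 9. The lead transcript of Dnajb4 held 88.4% ± 3.8 in control oligo and 74.4% ± 1.1 in sham libraries, that of Dnajb5 64.7% ± 7.9 and 45.7% ± 7.7, and that of Dnajc5 84.5% ± 3.3 and 66.7% ± 6.2 (SD, n = 3 each). Read length differs between these data sets and bears on how reads are assigned to transcripts; its part was not tested.

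Promoters of 3 members are shown because they carry the largest rise (Dnajb1), a rise with 2 heat shock motifs near the start (Dnaja4) and the largest fall (Dnajc6). They run from 250 bases before to 50 after the RefSeq start (GRCm38.p6, all on the plus strand), at chr8:83607925-83608224, chr9:54699309-54699608 and chr4:101550344-101550643, and their starts lie 18, 0 and 0 bases from the start of the lead transcript. Capitals mark GAANNTTC or TTCNNGAA, a pair of the units that heat shock factor binds, and CCAAT or its complement ATTGG.
Dnajb1: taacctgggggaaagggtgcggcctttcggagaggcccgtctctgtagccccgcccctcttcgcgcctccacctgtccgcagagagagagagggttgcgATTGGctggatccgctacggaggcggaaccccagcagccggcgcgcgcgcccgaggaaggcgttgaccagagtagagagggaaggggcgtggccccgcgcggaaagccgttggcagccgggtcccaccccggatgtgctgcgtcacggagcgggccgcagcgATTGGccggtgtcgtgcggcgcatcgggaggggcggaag
Dnaja4: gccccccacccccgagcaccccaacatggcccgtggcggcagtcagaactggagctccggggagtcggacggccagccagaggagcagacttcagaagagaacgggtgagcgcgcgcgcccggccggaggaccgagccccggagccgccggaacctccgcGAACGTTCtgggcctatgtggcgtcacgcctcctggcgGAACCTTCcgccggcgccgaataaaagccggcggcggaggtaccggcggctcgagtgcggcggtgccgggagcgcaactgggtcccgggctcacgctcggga
Dnajc6: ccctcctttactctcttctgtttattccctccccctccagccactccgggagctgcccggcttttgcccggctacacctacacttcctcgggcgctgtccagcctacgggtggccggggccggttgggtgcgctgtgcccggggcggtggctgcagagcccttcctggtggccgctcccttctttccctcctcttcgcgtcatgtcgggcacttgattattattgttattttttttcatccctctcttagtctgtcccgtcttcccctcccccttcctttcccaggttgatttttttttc

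The pair of units stood in 7 of 46 RefSeq promoters (15.2%) of the 33 kept members found in the table, and in 15.1% of all 32851 promoters, so it does not set the family apart. Dnaja4 held it at positions -90 (GAACGTTC) and -52 (GAACCTTC), counted to the start, and Dnaja1 at -124 (GAAAATTC). The other 4 members with it were Dnajb4, Dnajb6, Dnajc10 and Dnajc27, and none of them passed as higher after scaling. Without scaling Dnajb4 and Dnajb6 were higher in control oligo than in sham libraries. A run of 3 units (the pair followed by 2 unspecified bases and GAA or TTC in turn; 0.603% of all promoters) was found in Dnajb6 alone, as GAATCTTCCGGAA. The ER stress element (CCAAT, 9 unspecified bases, CCACG; 0.119% of all promoters) was found in Dnajc3 alone, as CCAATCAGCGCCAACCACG at -105. Dnajb1 had CCAAT or its complement, as did 12 kept members in all, and neither heat shock pattern within these 300 bases. CCAAT or its complement stood in 34.8% of member promoters and 37.4% of all promoters, so it does not set the family apart.

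Partners of the family were looked at from lists. Of 15 Hsp70 and Hsp110 genes, 8 rose and 4 fell in control oligo against sham cortex, with a median of 0.51. Among all genes 26.1% rose and 29.2% fell, so the share of this list that fell is close to that of all genes. Hspa1a, an inducible Hsp70, stood at 457, 338 and 483 scaled TPM in control oligo libraries, against 8.07, 3.63 and 5.85 with sham surgery, a rise of 6.00, against 2.32 for its partner Dnajb1; reads may be split between it and the near-identical Hspa1b (5.91). Hsph1, an Hsp110, rose by 1.98. The constitutive Hspa8 rose by 0.95 and the ER form Hspa5 (BiP) by 0.93. J-domain members of cytosol and nucleus ranged from 0.08 to 2.32, and those of the ER from -1.0 to 0.69. Among 9 nucleotide exchange factors 4 rose and 1 fell, with Bag3, which links Hsp70 to autophagy, at 3.14 and Bag4 at -0.83. Among 6 TPR co-chaperones and heat shock factors 3 rose and 1 fell, the rises being Stub1 (1.10), Hsf1 (0.78) and Stip1 (0.70) and the fall St13 (-0.47). Without scaling no gene of these 3 lists fell, where 12.8% of all genes fell and 52.6% rose. Of 3 J-domain genes with other symbols reported here, Gak, the ubiquitous relative of auxilin, rose by 0.60 and Sec63 by 0.44, and Hscb had a change of 0.49 that did not pass.

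The knockdown of the enhancer RNA, compared with the control oligo at the same stage of stroke, left every member short of the threshold. With limma, 0 of 39 members were higher and 0 lower, and 2 genes were higher (0.0117%) and 1 lower (0.00585%) among all 17080. At an unadjusted p under 0.05 there was 1 member, Dnajb9, against 2.37% of all genes, and the libraries of these groups did not overlap in 2 members, Dnajb9 and Dnajc24, against 6.38% of all genes. Member changes ranged from -0.26 to 0.57, 29 positive and 10 negative, with a median of 0.08 (all genes 0.01). In 37 of the 39 the 95% interval lay within -1 to 1, and the outer bounds were -0.65 and 1.46, so a change of a member by 1 or more on the log2 scale was outside the interval for 37.

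By the smallest p, 4 members are named, none past the threshold. Dnajb9 differed by 0.33 (95% interval 0.06 to 0.60, unadjusted p = 0.0247, limma adjusted p = 1), with all 3 knockdown libraries above all 3 control oligo libraries. Dnajc3 differed by 0.26 (interval -0.07 to 0.59) in the same direction, but its groups overlapped. Dnajc24, an enzyme cofactor of diphthamide synthesis, had 9.28, 9.07 and 8.90 scaled TPM in knockdown, 6.69, 7.24 and 8.40 in control oligo and 7.68, 5.87 and 7.30 in sham libraries, with a difference of 0.26. The knockdown libraries were close together and above the rest. Over coding transcripts of Dnajc24 the difference was 0.05, and knockdown and control oligo libraries overlapped. Dnajc19 differed by -0.26 over all transcripts and by 0.39 over coding ones.

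For Dnajb1, Dnaja1 and Dnajc6, which differed between control oligo and sham cortex, knockdown and control oligo libraries overlapped. Dnajb1 averaged 212 ± 55.8 scaled TPM in knockdown and 194 ± 72.6 in control oligo libraries, and the difference of 0.18 had an interval of -0.63 to 0.98. Dnaja1 averaged 376 ± 113 and 323 ± 93.8 (interval -0.54 to 0.96), and Dnajc6 92.6 ± 10.7 and 101 ± 7.02 (interval -0.43 to 0.17; SD, n = 3 each). The partner lists had 0 genes called in this comparison as well.

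Knockdown replicate 4 stood apart from the other MCAO libraries. Its 5 neutrophil markers summed to 1175 scaled TPM, against 53.8 and 69.3 in the other knockdown libraries, 22.5 to 302 in control oligo and 3.90 to 10.1 in sham libraries. Its microglial markers summed to 339, against 173 to 195 in the other MCAO libraries, and all of the markers of both lists were kept. It was the lowest knockdown library for 26 of 39 members and the highest for 6. The same ranks were not counted over all genes, so these counts are not a result about the family. Dnajb4, a cytosolic relative of Dnajb1, had 38.1, 30.8 and 76.0 scaled TPM in knockdown, 36.0, 34.2 and 21.4 in control oligo and 32.4, 22.1 and 27.4 in sham libraries. Dnajc1, an ER membrane J-domain protein, had 7.45, 8.34 and 16.7 in knockdown, 5.62, 8.58 and 7.69 in control oligo and 19.5, 10.03 and 13.3 in sham libraries. In both the high knockdown value is replicate 4, and without it the differences between knockdown and control oligo were 0.19 and 0.12 in place of 0.57 and 0.45. The part of cell makeup in these values was not tested.

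**Figure D5:**
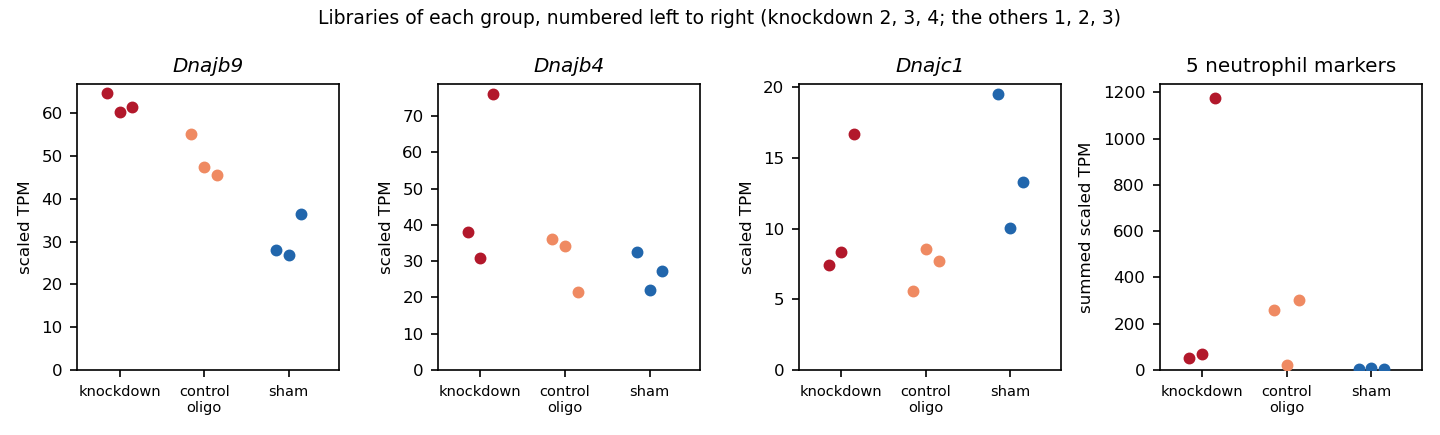
Scaled TPM (y axis) of Dnajb9, Dnajb4 and Dnajc1 and the summed scaled TPM of 5 neutrophil markers in each library, numbered left to right within its group. Knockdown replicate 4 is the highest MCAO library for Dnajb4 (76.0), Dnajc1 (16.7) and the neutrophil markers (1175), while the 3 knockdown values of Dnajb9 lie close together.

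Against sham, the knockdown cortex had 12 members higher and 7 lower, where 22.7% and 27.1% of all genes were called, and without scaling 27 and 1 (all genes 52.7% and 12.5%). This comparison shares its sham libraries with the one above, so its values are not an independent repeat. Dnajb1 rose by 2.50, Dnaja1 by 1.49, Dnajc17 by 1.46, Dnaja4 by 1.08 and Dnajb9 by 1.02, and Dnajc6 and Dnajb14 fell by 1.31 and 1.06 on the log2 scale, the fall of Dnajb14 only after scaling. Dnajb5 (0.79, adjusted p = 0.0512) and Dnajb2 (0.61, adjusted p = 0.0798) did not pass here, nor did Dnajc1, Dnajc3, Dnajc5 and Dnajc28, and Dnajc11, of the outer mitochondrial membrane, passed here at 0.37, but not without any 1 sham replicate or knockdown replicate 2 or 3. Whether these members differ between the comparisons is what the test of knockdown against control oligo addresses, and none of them passed it. Leaving out sham replicates 1, 2 or 3 left 3, 4 and 4 members lower, and without knockdown replicate 4 there were 18 higher and 8 lower.

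The median coefficient of variation of scaled TPM over 3 libraries was 16.1% for members and 19.8% for all kept genes in knockdown, 10.3% and 18.5% in control oligo, and 9.05% and 10.4% in sham libraries. Dnajb4 was the most variable member in knockdown (50.3%), Dnajc14 in control oligo (40.8%) and Dnajc9 in sham libraries (39.6%). With 3 libraries a group, each of these coefficients is itself imprecise.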

How the data were processed

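RNA-seq of cortex was deposited as 1 table a library. The submitters' processing notes name HISAT2 2.0 and StringTie 1.3, with GRCm38/mm10; per the file headers StringTie was 1.3.4d, run on a merged annotation with the options -e and -B and none for strand. The deposited tables hold read coverage, FPKM and TPM of 131100 transcripts. Per the labels the MCAO libraries were stranded and poly(A)-selected; the preparation of the sham libraries is not given in the sources used here. TPM was summed per gene and scaled by the median ratio over the genes kept. Of 3 comparisons each used 6 libraries, with limma-trend (limma 3.58.1 under R 4.3.3) on log2(scaled TPM + 1) and Benjamini-Hochberg adjustment over 17080 genes, after a test on simulated data. The pseudocount of 1 understates changes of low genes. Coverage served only to estimate aligned bases, and no read counts were used, so intervals rest on the spread between libraries alone. The labels speak of cohorts of mice without saying whether animals were pooled, so p-values measure the spread between these samples, which may be technical. Python 3.11.15 with pandas 2.3.3 and numpy 2.4.6 was used for the rest.

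Members and lists were chosen with earlier results of these data known. By the naming rule, values in every library are given for members called in control oligo against sham with an absolute change of at least 1, the 4 of smallest p in knockdown against control oligo, the 3 of highest mean in each subfamily, and 9 of well-known role. Dnajb4, Dnajc1 and Dnajc9, and Dnajb14 in a plot, were added after their values were seen. Of each partner list up to 3 of smallest p are named; Hspa8, Hspa5, Stip1, Hspa9, Hyou1 and Hspa13 were added after their values were seen. Results of some listed genes are not reported here. Transcript types came from GENCODE M21, where 38 members have the same start and end, and promoters from RefSeq. Exons of 15 kept members overlap another gene, 14 of them on the opposite strand, and values there are uncertain. Alternatives were deposited TPM, TPM over nuclear protein-coding genes, a pseudocount of 0.1, no filter, FPKM, all 9 libraries in 1 fit, leaving out each replicate, the replicate number as a block and, chosen after seeing the data, protein-coding transcripts only.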

Additional observations from a re-analysis of the deposited data

How the results depend on the processing

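The rises of Dnaja1, Dnaja4, Dnajb1, Dnajb11, Dnajb9, Dnajc17, Dnajc7 and Dnajc8 over sham passed in both MCAO groups under every alternative tried, as did the fall of Dnajc6. Of the 11 falls in control oligo against sham, 10 did not pass without scaling, and 6 of those passed under all other alternatives. The cause was not tested. Deposited TPM without scaling gave 8990 genes and 24 members higher, 2178 genes and 1 member lower and a member median of 0.74 in control oligo against sham, and 9007 and 27 higher, 2143 and 1 lower and a median of 0.95 in knockdown against sham. It turned the sign in control oligo against sham of Dnajc5 (0.36), Dnaja3 (0.35), Dnajc27 (0.14), Dnajc15 (0.24), Dnajc3 (0.059), Dnajc14 (0.35), Dnajc19 (0.60), Dnajc12 (0.50), Dnajc28 (0.034), Dnajc16 (0.41) and Dnajc21 (0.18). In knockdown against sham it turned Dnajc5 (0.43), Dnaja3 (0.58), Dnajc27 (0.18), Dnajc15 (0.28), Dnajc3 (0.37), Dnajc14 (0.49), Dnajc1 (0.26), Dnajc10 (0.12), Dnajc19 (0.39), Dnajc13 (0.10), Dnajc12 (0.46), Dnajc28 (0.043), Dnajc16 (0.45) and Dnajc21 (0.29). TPM over nuclear protein-coding genes turned Dnajb12 (-0.024), Dnajc24 (-0.037) and Dnaja2 (-0.064) in control oligo against sham, and gave 2546 genes higher, 12 members lower and a member median of 0.10 in knockdown against sham. Coding transcripts alone, an alternative chosen after seeing the data with 13839 genes tested, gave 3218 genes lower in control oligo and 2771 in knockdown against sham, and turned Dnajc9 (-0.54 in control oligo and -0.43 in knockdown against sham) and Dnajc19 (0.11 in knockdown against sham and 0.39 in knockdown against control oligo). Without a filter 4 members were lower in knockdown against sham. In knockdown against control oligo, 1 gene was higher with deposited TPM, a pseudocount of 0.1, no filter or coding transcripts alone, 0 were higher and 0 lower over protein-coding genes, and 2 were lower with all 9 libraries in 1 fit; 0 members passed under each. Leaving out 1 library at a time gave 7 to 12 members lower in control oligo and 3 to 8 in knockdown against sham, and 0 to 2 genes higher in knockdown against control oligo. The signs of Dnajb12 (-0.045 to 0.24), Dnajc24 (-0.013 to 0.16), Dnajb4 (-0.00061 to 0.37), Dnajc19 (-0.14 to 0.075) and Dnajc12 (-0.13 to 0.049) in control oligo against sham, and of Dnaja3 (-0.24 to 0.089) in knockdown against sham, turned. Correlations of same-numbered libraries were -0.022, -0.083 and 0.110 for control oligo with sham, 0.224 and 0.090 for knockdown with control oligo and -0.084 and 0.112 for knockdown with sham, and the numbers were not taken as pairs. The replicate block gave 13 members higher and 9 lower in control oligo against sham, 14 and 5 in knockdown against sham, 0 genes higher and 0 lower in knockdown against control oligo, and turned Dnaja3 (0.037, knockdown against sham) and Dnajc1 (-0.039, knockdown against control oligo).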

Other observations

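Within a compartment, Hsp70 genes, exchange factors and J-domain members had changes of both signs in control oligo against sham cortex. In mitochondria, the Hsp70 Hspa9 and its exchange factor Grpel1 were each higher by 0.67, while their J-domain partner Dnaja3 had a change of -0.29 that did not pass (0.35 without scaling). In the ER, the Hsp70 Hspa5 was higher by 0.93, whereas Hyou1 and Hspa13 fell by 0.58 and 0.56 on the log2 scale (0.08 each without scaling), beside rises of Dnajb9 and Dnajb11 and the fall of Dnajc3. Whether the changes of these genes differ from each other was not tested.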
